A study of Mus musculus with 10 samples.

Results

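The genes described here are those whose symbol in the deposited table starts with Odf and a digit, a name that comes from the outer dense fibers of the sperm tail. This rule took 7 of the 15507 genes listed, namely Odf1, Odf2, Odf2l, Odf3, Odf3b, Odf3l1 and Odf4, and all 7 passed the filter on low counts that left 15389 genes to test. The samples were germ cells from testes of mice aged 45 days, 5 wild type (WT) and 5 knock-in (KI), each sequenced as 1 poly(A) RNA library. KI mice were homozygous for human GRTH carrying R242H, and GRTH is the RNA helicase that mice encode as Ddx25. WT mice carried the mouse gene, and no other allele or agent differs between the groups in the labels. The comparison of KI with WT asks how this change in GRTH alters germ cell transcripts.

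Outer dense fibers run along the outside of the axoneme through the midpiece and principal piece of the sperm tail, where they stiffen and protect the flagellum. Their proteins are rich in cysteine, are made in elongating spermatids and become linked by disulfide bonds as sperm mature. Genes called Odf are not 1 sequence family. ODF1 is a small heat shock protein relative with a repeat of cysteine, glycine and proline at its carboxyl end, and ODF2 is a coiled-coil protein that also builds appendages on the mother centriole. ODF2L is a coiled-coil relative of ODF2 found at centrioles, ODF3, ODF3B and ODF3L1 share a short repeat rich in proline, and ODF4 is a tail protein with predicted membrane-spanning segments.

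Odf1 is shown first by the stretch of its coding sequence that gives the cysteine repeat, because this repeat is the feature for which the protein is known and because the gene had the largest fall of the 7. The coding sequence of the mouse transcript in GENCODE vM21 had 744 bases in 248 codons over 2 exons. A search in frame for TGNGGNCCN, the codons of cysteine, glycine and proline in a row, found 6 such triplets without interruption, from codon 210 to codon 227. They lie in the second coding exon, in the 150 bases at chr15:38226437-38226586 of GRCm38, plus strand, and are in capitals.
Odf1: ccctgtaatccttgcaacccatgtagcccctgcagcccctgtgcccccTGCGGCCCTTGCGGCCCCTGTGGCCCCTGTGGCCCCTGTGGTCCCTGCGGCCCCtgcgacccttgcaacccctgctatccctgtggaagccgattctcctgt

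Promoters of 6 of the 7 genes were read from RefSeq on GRCm38.p6, and Odf1 had no entry. The 250 bases before each start were searched on both strands for letters that belong to binding motifs of factors active in spermatids, as a description of where they stand and not of a site in use. The full cAMP response element TGACGTCA, the motif of CREM, was in 1.55% of 32851 promoters and in none of the Odf promoters. Its half-site TGACG, which the full element contains, was in 17.8% of promoters and among these genes in Odf2 alone, before 2 of its 4 RefSeq starts. The X-box half-site GTTGCC, read by RFX factors, was in 10.4% of promoters and among these genes in Odf3 and Odf3l1. The 5 windows of 30 bases are given with the motif in capitals, 102 and 27 bases before the most upstream of the 4 RefSeq starts of Odf2 (chr2:29889606-29889635 and chr2:29889681-29889710, plus strand, inside the span that the deposited table gives for the gene), 65 bases before that of Odf3 (chr7:140847839-140847868, plus strand), and 123 and 103 bases before 2 starts of Odf3l1 (chr9:56853920-56853949 and chr9:56852049-56852078, minus strand).
Odf2: cgcgtgtctcccTGACGacggggcggtgga
Odf2: ggggcatctctgTGACGctgggggctgggc
Odf3: cctttttagggaGTTGCCtggcacagacac
Odf3l1: aaaaaaaaaagaGTTGCCagtagatgtgga
Odf3l1: ttcaggcaccacGGCAACgggagaaataaa

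Odf4 is shown by the 250 bases before its start, chr11:68927082-68927331, minus strand, as the promoter of a gene that fell and held none of these letters in this window. Odf3b also held none in its window.
Odf4: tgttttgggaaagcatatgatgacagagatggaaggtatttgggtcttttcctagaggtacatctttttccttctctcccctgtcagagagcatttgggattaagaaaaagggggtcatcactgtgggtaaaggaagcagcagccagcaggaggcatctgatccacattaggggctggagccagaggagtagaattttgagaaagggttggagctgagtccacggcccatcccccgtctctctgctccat

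The values are normalized counts, that is, the reads of a gene divided by a factor for the depth of the library. The libraries held 13323024 to 16422347 reads in WT and 12722086 to 15500582 in KI, and 3 reads, the limit that a count of 0 leaves possible, were worth 2.61 to 3.62 normalized counts. Ddx25 was at 5198 to 11101 in the WT libraries, at 146, 194 and 161 in KI 1 to 3, and at 2.88 and 1.84 in KI 4 and 5, so that every KI library was below every WT library. Reads were aligned to the mouse genome, so this row is not a measure of RNA from the human GRTH of KI mice. Within each genotype the first 3 libraries differ in mean read quality from libraries 4 and 5 as the study lists it, and the fold change of each Odf gene was therefore also computed in either set alone. The log2 fold change of Ddx25 differed by −6.25 in libraries 4 and 5 against 1 to 3 (adjusted p = 1.12e-10, limma model with an interaction term). The cause was not tested. The labels call the cells germ cells, and markers of Leydig cells (10291 to 18066 summed normalized counts in WT) and of Sertoli cells (5961 to 9807) were present as well.

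Of the 7 Odf genes, 4 were lower in KI (Odf1, Odf2, Odf3b and Odf4) and 0 were higher. The same call, which needed a fold of 1.5 or more and an adjusted p under 0.05 in limma, was made for 8.22% of all genes tested in the direction of lower in KI, for 6.13% in the direction of higher, and for 14.4% in either. Odf1 and Odf3b had the largest falls, Odf2 and Odf4 fell less, and Odf2l, Odf3 and Odf3l1 did not pass the test. The counts of 4 and 0 were also those of edgeR and DESeq2, and 0 of the 7 genes were higher in limma at an unadjusted p under 0.05 either. The median log2 fold change of the 7 genes was −0.73, against 0.03 over all genes tested. In RNA from a mixture of cells, fewer cells of a type and less RNA per cell cannot be told apart.

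**Figure D1:**
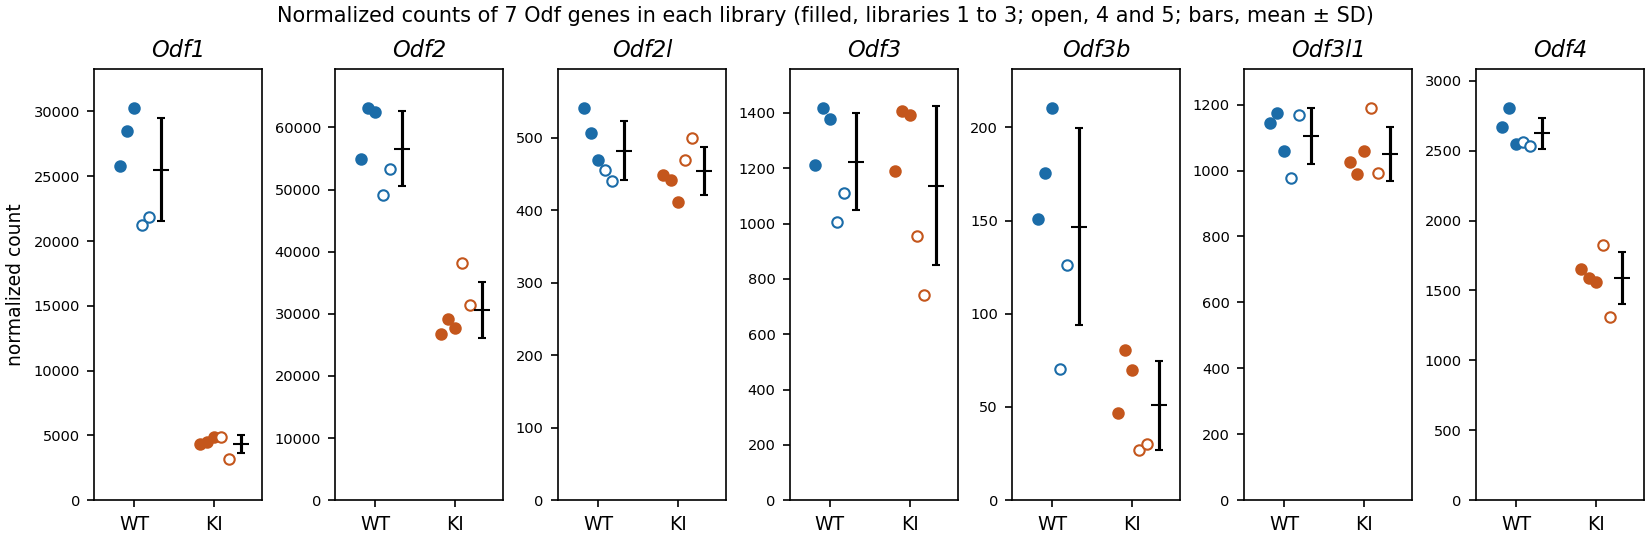
Normalized counts (vertical axes, each from 0) of the 7 Odf genes in the 5 WT (blue) and 5 KI (orange) libraries, with libraries 1 to 3 filled, libraries 4 and 5 open, and bars for the mean ± SD. Odf1, Odf2 and Odf4 show no overlap between genotypes, Odf3b overlaps by KI 2 and WT 4, and Odf2l, Odf3 and Odf3l1 are intermixed.

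Odf1 (chr15:38219203-38226735, plus strand, mm10), the main cysteine-rich protein of the fibers, was at 25800, 28471, 30233, 21213 and 21855 normalized counts in WT 1 to 5. In KI 1 to 5 it was at 4348, 4458, 4852, 4907 and 3196. Every KI library was below every WT library, and the highest KI value was far below the lowest WT value. Its WT mean was 25514 ± 3968 (SD, n = 5) and its KI mean 4352 ± 690 (SD, n = 5), or 17.1% of the former. The log2 fold change was −2.55 (SE 0.14, 95% interval −2.84 to −2.26, adjusted p = 1.39e-08, limma). By size of fall Odf1 ranked 37 of the 10527 genes whose mean over all libraries was 100 or more. It was among the most abundant transcripts in WT, at rank 34 to 49 by normalized count, and at rank 430 to 938 in KI. Libraries 1 to 3 alone gave −2.63 and libraries 4 and 5 alone −2.44.

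Odf2 (chr2:29889014-29931746, plus strand) had the most reads of the 7 genes in every library. It was at 54936, 63059, 62467, 49116 and 53244 normalized counts in WT 1 to 5, and at 26780, 29132, 27769, 38141 and 31358 in KI 1 to 5. The genotypes did not overlap, and KI 4 was the highest of the KI libraries. The means were 56564 ± 6045 (SD, n = 5) and 30636 ± 4533 (SD, n = 5), so that KI kept 54.2% of the WT mean. The log2 fold change was −0.89 (SE 0.13, 95% interval −1.16 to −0.62, adjusted p = 1.15e-04, limma). Odf2 stayed an abundant transcript, at rank 4 to 7 by normalized count in WT and 13 to 18 in KI. Libraries 1 to 3 alone gave −1.11, and libraries 4 and 5 alone gave −0.56, where Odf2 missed the threshold (adjusted p = 0.0623, limma). The difference of 0.54 between these values had an adjusted p of 0.146 over all genes in a limma model with an interaction term. The annotation places a small nuclear RNA gene, Gm23865, on the opposite strand over 97 exonic bases of Odf2, and Gm23865 has no row of its own in the table.

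Odf4 (chr11:68921835-68927081, minus strand) varied little within WT, where it was at 2670, 2803, 2551, 2562 and 2534 normalized counts. It was at 1652, 1590, 1559, 1825 and 1308 in KI 1 to 5. No KI library reached the WT range, and KI 5 was the lowest. The means were 2624 ± 113 (SD, n = 5) and 1587 ± 187 (SD, n = 5), or 60.5% of the WT mean in KI. This was a log2 fold change of −0.73 (SE 0.09, 95% interval −0.93 to −0.53, adjusted p = 4.38e-05, limma), with −0.74 in libraries 1 to 3 and −0.72 in libraries 4 and 5. Scaled to library totals, a scaling that moved the median log2 fold change of all genes from 0.03 to 0.25, Odf4 was at −0.50 (adjusted p = 0.000841, limma), under the fold of 1.5.

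Among the 3 genes of the proline-rich repeat family, Odf3b was the only gene to pass the test. Odf3b (chr15:89377449-89379254, minus strand) was the least abundant, with 70 to 174 reads in a WT library and 28 to 93 in a KI library. It was at 151, 176, 210, 70.2 and 126 normalized counts in WT 1 to 5, and at 46.9, 80.8, 70.0, 26.9 and 30.4 in KI 1 to 5. The genotypes overlapped, since KI 2 was above WT 4, and libraries 4 and 5 were the lowest in either genotype. KI was below WT at each of the 5 library numbers, but the labels do not say that libraries of the same number are pairs. The means were 147 ± 52.8 (SD, n = 5) and 51.0 ± 23.8 (SD, n = 5), or 34.8% of the WT mean in KI. This was a log2 fold change of −1.54 (SE 0.32, 95% interval −2.23 to −0.86, adjusted p = 0.00269, limma), the widest interval of the 7 genes. Taken alone, libraries 1 to 3 gave −1.45 and libraries 4 and 5 gave −1.68.

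Odf3 (chr7:140847916-140850925, plus strand), which gives its repeat to the group, was at 1211, 1416, 1378, 1005 and 1110 normalized counts in WT 1 to 5. It was at 1190, 1406, 1394, 955 and 742 in KI 1 to 5. Libraries 1 to 3 were the higher ones and libraries 4 and 5 the lower ones in either genotype, and the genotypes overlapped over most of their range. KI differed from WT by a log2 fold change of −0.13 (SE 0.16, 95% interval −0.48 to 0.21, adjusted p = 0.612, limma), with −0.01 in the former set of libraries and −0.33 in the latter. A protein-coding gene, Gm45785, is annotated on the opposite strand within the bounds of Odf3 and shares 0 exonic bases with it.

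Odf3l1 (chr9:56848659-56851963, minus strand) was at 1145, 1174, 1059, 979 and 1170 normalized counts in WT 1 to 5. It was at 1027, 988, 1060, 1189 and 993 in KI 1 to 5. The highest of the 10 values was that of KI 4 and the lowest that of WT 4, and the ranges lay over each other. KI differed from WT by a log2 fold change of −0.07 (SE 0.09, 95% interval −0.26 to 0.12, adjusted p = 0.619, limma), an interval that leaves out falls of the size measured for Odf1, Odf2, Odf3b and Odf4.

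Odf2l (chr3:145118589-145153915, plus strand), the centriolar relative of Odf2, was at 541, 506, 470, 455 and 440 normalized counts in WT 1 to 5. It was at 449, 441, 412, 470 and 500 in KI 1 to 5. The genotypes overlapped, and WT was above KI in libraries 1 to 3 while KI was above WT in libraries 4 and 5. The log2 fold change was −0.09 (SE 0.09, 95% interval −0.29 to 0.12, adjusted p = 0.573, limma). Scaled to library totals, the log2 fold changes of Odf2l, Odf3 and Odf3l1 turned to 0.14, 0.09 and 0.16, with none past the threshold, so that no direction is given for these 3 genes.

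**Figure D2:**
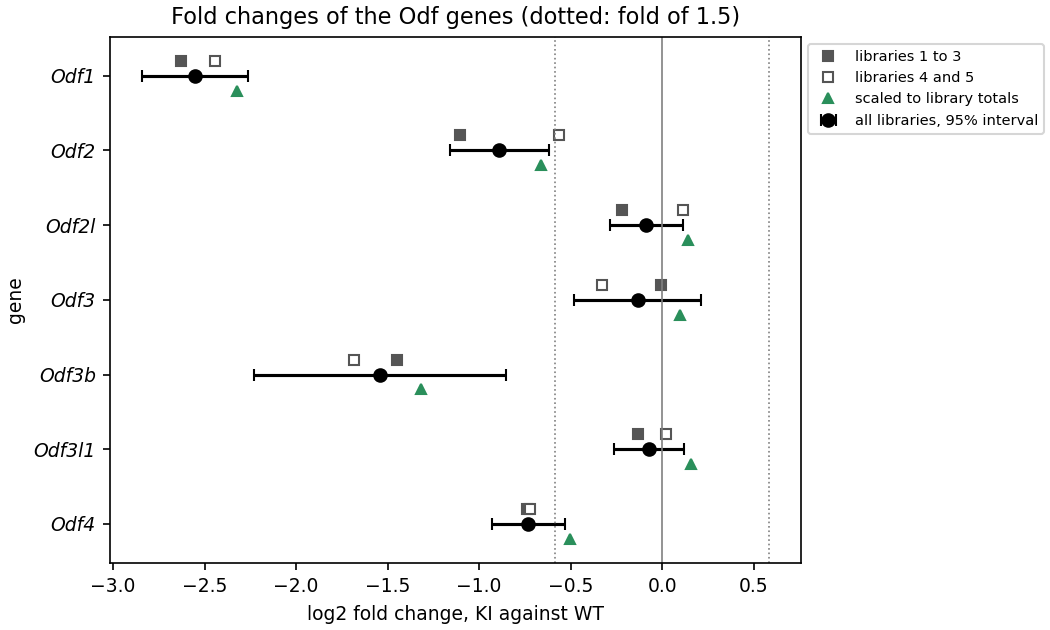
Log2 fold change of KI against WT (horizontal axis) for each Odf gene, with the 95% interval over all 10 libraries (black), the value in libraries 1 to 3 (filled squares), in libraries 4 and 5 (open squares) and after scaling to library totals (triangles). Dotted lines mark a fold of 1.5. Odf1 is at −2.55, the intervals of Odf1, Odf2, Odf3b and Odf4 lie below 0, and those of Odf2l, Odf3 and Odf3l1 include 0.

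Each of the genes Odf1, Odf2 and Odf4 had every KI library below every WT library, which was so for 10.9% of all genes tested. The spread within a genotype differed between members. The coefficient of variation over the 5 WT libraries was 4.32% for Odf4 and 36.0% for Odf3b, and over the 5 KI libraries 7.22% for Odf2l and 46.7% for Odf3b.

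To set the levels of different genes side by side, counts were divided by the length of the longest coding transcript in GENCODE vM21 (basic set), since a long transcript gives more reads. In WT, Odf1 was first at 23090 ± 3591 normalized counts per kilobase (SD, n = 5; 1105 bases) and Odf2 followed at 14287 ± 1527 (SD, n = 5; 3959 bases), with ranges of 19197 to 27360 and 12406 to 15928 that did not overlap. In KI that order was the opposite, with Odf2 at 7738 ± 1145 and Odf1 at 3939 ± 625 normalized counts per kilobase (SD, n = 5), again without overlap. Which of the pair was first in WT depended on the transcript of Odf2, since with its shortest coding transcript of 2249 bases Odf2 was at 25151 per kilobase in WT and at 13622 in KI. Odf4 followed in either genotype, at 2434 ± 105 per kilobase in WT and 1472 ± 173 in KI (SD, n = 5). Odf3l1 and Odf3 came next and did not differ beyond their spread, at 912 ± 69.7 and 811 ± 116 per kilobase in WT and 868 ± 67.7 and 754 ± 190 in KI (SD, n = 5). Odf2l and Odf3b were last, at 188 ± 15.9 and 141 ± 50.8 per kilobase in WT, where their ranges overlapped, and at 177 ± 12.8 and 49.0 ± 22.9 in KI, where they did not (SD, n = 5).

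A ratio of 2 genes within a library does not depend on how the library was scaled, so whether members fell by different amounts was tested on ratios. Odf1 counts were 47.0%, 45.1%, 48.4%, 43.2% and 41.0% of the Odf2 counts in WT 1 to 5. In KI 1 to 5 they were 16.2%, 15.3%, 17.5%, 12.9% and 10.2%. Every KI library was below every WT library. The log2 ratio of Odf1 to Odf2 was lower in KI by a difference of −1.66 (95% interval −2.0 to −1.33, n = 5 against 5, exact two-sided permutation test p = 0.00794, the smallest that 252 arrangements allow, and adjusted p = 0.0152 over 21 pairs). It was −1.52 in libraries 1 to 3 alone and −1.88 in the other libraries alone.

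**Figure D3:**
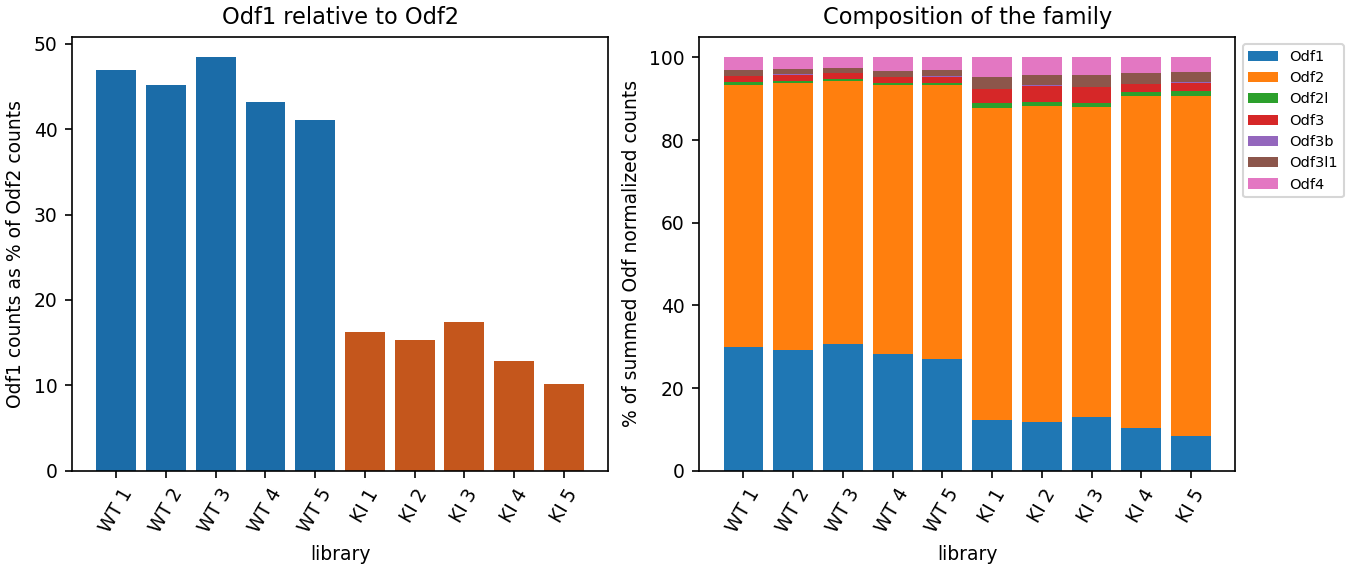
Left, Odf1 normalized counts as a percent of Odf2 normalized counts (vertical axis from 0) in each library, and right, the percent of the summed normalized counts of the 7 genes taken by each gene in each library. Odf1 is at 41.0% to 48.4% of Odf2 in WT and at 10.2% to 17.5% in KI, and its share of the sum is smaller in every KI library.

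The 7 genes together took 0.484% to 0.611% of all normalized counts in WT and 0.273% to 0.325% in KI, and their sum was 75400 to 98367 against 35494 to 47514. Odf1 made up 29.0% ± 1.41 of this sum in WT and 11.1% ± 1.84 in KI (SD, n = 5). Odf2 made up 64.6% ± 1.12 and 77.9% ± 3.24 (SD, n = 5). The other 5 genes were a small part of the sum in either genotype, and these shares are of reads, to which a long transcript such as that of Odf2 gives more.

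Of the 21 pairs of Odf genes, the ratio differed between genotypes in 14 at an adjusted p under 0.05 by the exact permutation test, and in 11 pairs the libraries of the genotypes did not overlap. The same shares over pairs of all genes were not computed. The 21 pairs reuse 7 genes, and most of the 14 set a gene lower in KI against Odf2l, Odf3 or Odf3l1. The count of 14 thus largely restates the calls of single genes. Odf1 fell relative to Odf2, Odf2l, Odf3, Odf3l1 and Odf4, with differences of the log2 ratio from −1.66 for Odf2 to −2.48 for Odf3l1. Relative to Odf3b the difference of −1.01 (95% interval −1.80 to −0.23) had an exact permutation p of 0.0397 and an adjusted p of 0.0556, and the genotypes overlapped. The ratio was lower in KI at each of the 5 library numbers, which the labels do not give as pairs. Odf1 against Odf4 gave −1.82 (95% interval −2.07 to −1.57, adjusted p = 0.0152, exact permutation test).

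The ratios among Odf2, Odf3b and Odf4, the other members that passed the test for KI against WT, did not pass the permutation test, which does not use library numbers. The log2 ratio of Odf2 to Odf4 differed by −0.16 (95% interval −0.42 to 0.11, adjusted p = 0.231, exact permutation test), with −0.37 in libraries 1 to 3 and 0.16 in libraries 4 and 5. For Odf2 to Odf3b it differed by 0.65 (95% interval −0.34 to 1.65, adjusted p = 0.231, exact permutation test), and for Odf3b to Odf4 by −0.81 (95% interval −1.76 to 0.14, adjusted p = 0.104, exact permutation test). The ratio of Odf3b to Odf4 was lower in KI at each of the 5 library numbers, which the labels do not give as pairs. These intervals still allow differences over 2-fold for the pairs with Odf3b. The 3 pairs among Odf2l, Odf3 and Odf3l1 differed by 0.05 (95% interval −0.49 to 0.59) for Odf2l to Odf3, by −0.01 (−0.22 to 0.19) for Odf2l to Odf3l1, and by −0.06 (−0.54 to 0.41) for Odf3 to Odf3l1.

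Related genes were not alike in their response. The ratio of Odf2 to its relative Odf2l fell by 0.80 on the log2 scale (95% interval −1.04 to −0.57, adjusted p = 0.0152, exact permutation test). Within the proline-rich repeat family, the ratio of Odf3 to Odf3b rose by 1.41 on the log2 scale (95% interval 0.83 to 1.99, adjusted p = 0.0152, exact permutation test), and that of Odf3b to Odf3l1 fell by 1.47 (95% interval −2.43 to −0.52, adjusted p = 0.0256, exact permutation test).

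**Figure D4:**
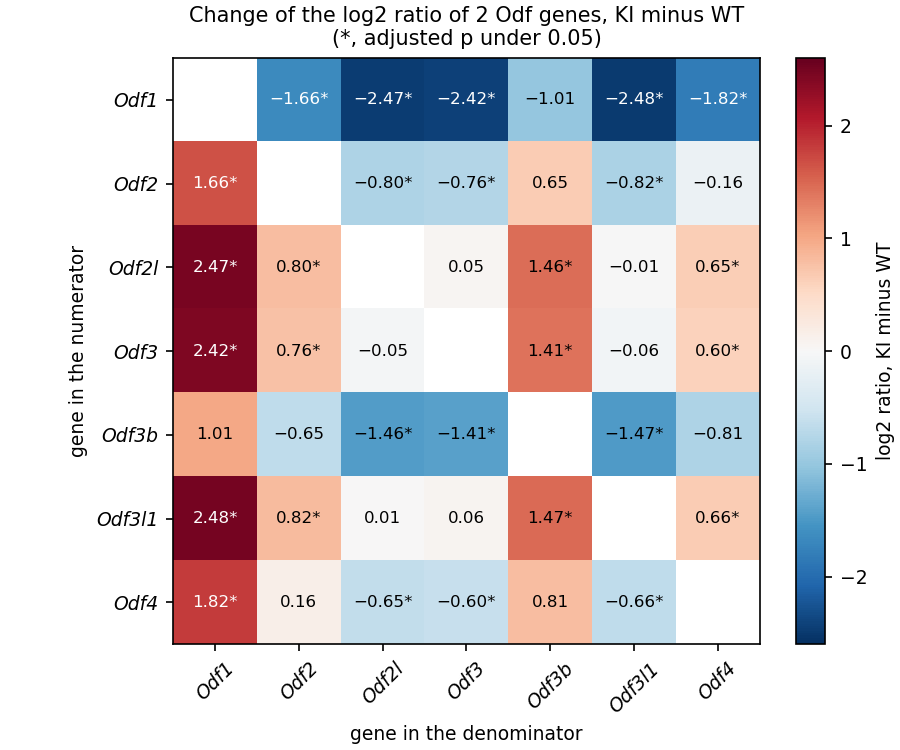
Difference of the log2 ratio, KI minus WT, for each pair of Odf genes, with the gene in the numerator in rows and the gene in the denominator in columns, and a star where the adjusted p of the exact permutation test is under 0.05. The row of Odf1 is negative throughout, from −1.01 against Odf3b to −2.48 against Odf3l1, and the squares among Odf2l, Odf3 and Odf3l1 lie within 0.06 of 0.

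For each of the 4 genes lower in KI, the genes with the most similar pattern were sought. The measure was the root mean square difference of centred log2 values over the 10 libraries. The search covered the 10527 genes whose mean over all 10 libraries reached 100 normalized counts. Nearest to Odf1 were 4933411K16Rik (0.10), Smcp (0.13), a cysteine-rich protein of the sperm mitochondrial sheath, and Spata18 (0.15), a mitochondrial quality control gene. Nearest to Odf2 were Dyrk1b (0.06), a protein kinase, Kif17 (0.08), a kinesin motor, and Vars (0.08), a valyl-tRNA synthetase. Nearest to Odf4 were Cpa5 (0.07), a carboxypeptidase, Tfb1m (0.07), a mitochondrial ribosomal RNA methyltransferase, and Ppp1r36 (0.08), a regulatory subunit of protein phosphatase 1. Odf3b had no neighbour as close, with Tmem269 (0.30), Ppp1r2-ps7 (0.31) and Gm136 (0.32) the nearest. The log2 fold changes of these 12 genes ran from −0.70 for Tfb1m to −2.74 for Smcp. As the genes were chosen by likeness over the same libraries, falls like those of the Odf genes follow from the choice.

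The other structures of the tail were read from lists of genes for comparison with the Odf genes, by counts alone. The list of the fibrous sheath, which wraps the outer dense fibers in the principal piece, had 15 tested genes. Of these, 10 were lower and 0 higher, with a median log2 fold change of −0.76. The largest falls among them were those of Gapdhs, the glycolytic dehydrogenase of sperm, from 20973 ± 5451 to 4693 ± 641 normalized counts (SD, n = 5; log2 fold change −2.13), and of Akap4, the main anchor of protein kinase A in the sheath, from 39354 ± 8571 to 10770 ± 1201 (SD, n = 5; −1.85). Of 20 tested genes of the connecting piece and head-tail coupling, 8 were lower and 0 higher, with a median of −0.44, among them Oaz3, an antizyme isoform of spermatids (log2 fold change −2.50), and Spatc1 (−1.97). Of 12 tested genes of the mitochondrial sheath, 4 were lower and 0 higher, with a median of −0.45. Smcp (−2.74) and Spata18 (−2.71) led that list, which counts 2 genes lower when the libraries are scaled to their totals. The list of the fibrous sheath counts 6 lower under that scaling. That list also holds Cylc1 (−0.78) and Cylc2 (−0.76), cylicins of the sperm head and not of the sheath. Both are among its 10 genes lower in the main fit, and they were named after their values were seen.

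Of 12 tested genes whose proteins are reported to bind outer dense fiber proteins, 3 were lower and 0 higher, and the median log2 fold change was −0.17. Txndc2, a thioredoxin of the sperm tail, fell from 8566 ± 2853 to 2647 ± 478 normalized counts (SD, n = 5; log2 fold change −1.64). The list shares 4 genes with that of the connecting piece and 2 with that of the mitochondrial sheath. Of 17 tested genes of the centriole appendages and ODF2 partners at the centrosome, 1 was lower and 0 higher, with a median of 0.07. The gene that fell was Sclt1, an appendage protein, from 2759 ± 326 to 1528 ± 128 normalized counts (SD, n = 5; log2 fold change −0.85). That share of the list is near the 8.22% of all genes that were lower. The count was 2 without KI 5 and in libraries 1 to 3 alone, and 1 gene of the list was higher without WT 1, WT 3, KI 2, KI 4 or KI 5 and with library totals. In libraries 4 and 5 alone 0 were lower and 2 higher. Of 7 genes listed as small heat shock protein relatives of ODF1, 0 were lower and 1 was higher, with a median of −0.22. Of 6 genes listed as relatives of ODF3 by the proline-rich repeat, 0 were lower and 0 higher, with a median of −0.35. Membership of these 2 lists was not checked by sequence, and some members, such as Hspb11 and Enkur, may not be true relatives. At an unadjusted p under 0.05 in limma, 4 of those 6 were lower, and edgeR and DESeq2 also called 0. The heat shock gene that rose was Hspb8, named after its values were seen, from a low level of 5.06 normalized counts in WT to 22.2 in KI (log2 fold change 2.08, SE 0.40, adjusted p = 0.00136, limma). Of that list 2 were higher in libraries 1 to 3 alone and with library totals, and in libraries 4 and 5 alone 1 was lower and 0 were higher.

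**Figure D5:**
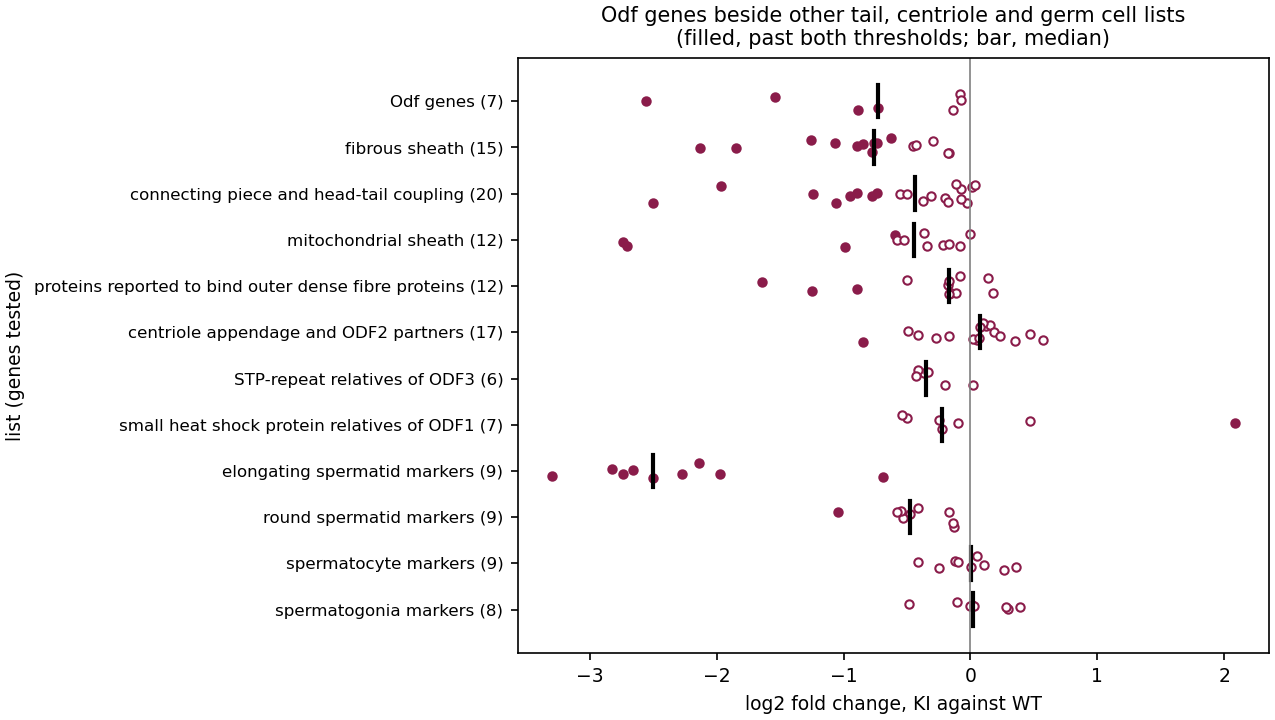
Log2 fold change of KI against WT (horizontal axis) of every tested gene in the Odf genes, the other tail and centriole lists, the genes listed as relatives and the germ cell marker lists (number tested in brackets), filled where both thresholds were passed, with a bar at the median. The median of the Odf genes, −0.73, stands between those of the round spermatid markers, −0.48, and the elongating spermatid markers, −2.50.

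Genes listed as markers of elongating spermatids were lower together with the Odf genes. The study's scheme has mRNA of members such as Prm2 already in round spermatids before translation. The list is therefore not a count of elongating spermatids. All 9 elongating spermatid markers were lower in KI, with a median log2 fold change of −2.50, and their summed level was 203888 to 375621 normalized counts in WT and 26569 to 61805 in KI. Prm2 (−3.30) and Prm1 (−2.82), the protamines that pack sperm DNA, fell most, and Smcp and Oaz3 are in this list as well as in tail lists. Of 9 round spermatid markers, 1 was lower, Lyzl1 (−1.04), with a median of −0.48 and a summed level of 24293 to 26501 in WT and 14389 to 21593 in KI. In libraries 4 and 5 alone this count was 6, and it was 2 without WT 3, KI 1 or KI 2 and 3 without KI 3. All 9 round spermatid markers had a negative log2 fold change, and 5 were lower at an unadjusted p under 0.05 in limma. Spaca1 (−0.53, adjusted p = 0.00604, limma) and Tex21 (−0.55, adjusted p = 2.63e-04, limma) missed the fold threshold alone. So did Catsper3 (−0.58, adjusted p = 7.61e-04, limma) and Tssk1 (−0.41, adjusted p = 0.0220, limma). The fall of Odf1 (−2.55) was near the median of the elongating list, and those of Odf2 (−0.89) and Odf4 (−0.73) were smaller than 8 of its 9 members' falls. The study reports that round spermatids of KI mice do not elongate and that elongating spermatids and sperm are absent. What part the number of elongating spermatids had in these results was not tested.

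None of the markers of earlier germ cells passed both thresholds. Of 9 spermatocyte markers and 8 spermatogonia markers, 0 were lower and 0 higher, with medians of 0.01 and 0.02, but in libraries 4 and 5 alone 2 of the spermatocyte markers were lower, and with library totals 1 of the spermatogonia markers was higher. At an unadjusted p under 0.05 in limma, 1 spermatocyte marker was lower and 2 were higher, and 1 spermatogonia marker was lower and 1 higher. Of these, the spermatocyte markers Spo11 (−0.41, adjusted p = 0.0232, limma) and Pou5f2 (0.36, adjusted p = 0.0213, limma) missed the fold threshold alone. So did the spermatogonia marker Gfra1 (−0.48, adjusted p = 0.0202, limma). For both lists edgeR and DESeq2 also called 0. Among somatic markers, 0 of 9 Sertoli cell genes passed the test, with a median of 0.13, 0 at an unadjusted p under 0.05 in limma and 0 calls in edgeR and DESeq2, but 1 was higher without KI 4 and 3 were higher in libraries 1 to 3 alone. In Leydig cells 3 of 7 were higher, with a median of 0.69, led by Insl3 (0.82) and Cyp17a1 (0.70). The Leydig count was 1 without WT 1, WT 3 or KI 5 and in libraries 4 and 5 alone, 5 without KI 4, with a replicate block and in DESeq2, and 7 without WT 2 and with library totals. Of 9 macrophage markers 6 were higher, with a median of 0.65, led by C1qa (0.90) and Csf1r (0.78), and of 5 endothelial markers 2 were higher, among them Vwf (1.05). The macrophage count was 2 in libraries 1 to 3 alone and 3 in libraries 4 and 5 alone, and the endothelial count was 1 without KI 5 and in libraries 4 and 5 alone. Of 5 peritubular markers 2 were higher and 1 was lower, Actg2 (−1.37). The count of those higher was 1 without WT 2, KI 1, KI 3 or KI 4 and in edgeR, and 0 in libraries 4 and 5 alone. Actg2 was at 3325 normalized counts in WT, against 11.9 to 54.4 for the other tested markers of this list. Which cells its reads came from was not tested. The deposited values hold no gene at 0 in every library, so a marker without reads would have no row. Of the markers chosen, 8 of 9 for spermatogonia and 5 of 6 for endothelial cells had a row. The part of the cells of these lists in the Odf results was not tested.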

How the data were processed

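Poly(A) RNA of germ cells from 5 WT and 5 KI mice was sequenced as paired-end reads, and samples were grouped by their labels. Reads were aligned with STAR to mm10 by the authors, who obtained gene counts with the Partek E/M model on RefSeq genes and deposited a signal for each gene and library, the count divided by a DESeq2 size factor. Of the deposited values under 5000 reads, 100% were whole reads to within 0.1 read once divided by what 1 read is worth, so reads were recovered. Columns of fold changes and p-values by the authors were not used.

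The normalized values were tested with limma 3.58.1 (R 4.3.3), with a variance trend, as log2(value + 1). Fold changes are on that scale, which understates those of low genes. Genes passed filterByExpr of edgeR 4.0.16 on the recovered reads, and the Benjamini-Hochberg adjustment ran over all 15389 of them. A call needed an adjusted p under 0.05 and a fold change of at least 1.5. Ratios were tested by exact two-sided permutation. On simulated data limma recovered 92 of 100 genes changed by 1 and 100 of 100 changed by 2 on the log2 scale, with 7 false calls. Only these genes were changed, in random directions, and no difference between the read-quality sets was simulated. The recovery and the false calls therefore need not hold for these data.

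The members, the gene lists and the tests were chosen with earlier results of these data known. Every Odf gene and Ddx25 are named, with, in each list, up to 2 called falls and 2 called rises at a mean of at least 100, and the 3 genes most similar to each Odf gene called. Hspb8, Cylc1, Cylc2, Hspb11, Enkur, Spo11, Pou5f2, Gfra1, Spaca1, Tex21, Catsper3 and Tssk1 were named besides these, after their values were seen. Alternatives were other scalings (library totals, upper quartile, TMM), filters, pseudocounts of 0.1 and 10, edgeR, DESeq2 1.42.0, no fold threshold, a replicate block, a term for the read-quality sets, either set alone, and each library left out. The interaction model and the shortest transcripts were added after seeing the data. Libraries of the same number correlated across genotypes after removing genotype means, with r of 0.306, 0.105, 0.280, 0.216 and 0.462, and were treated as paired in the block. The labels do not give them as pairs. Without r for different numbers beside them, these values cannot tell pairing from the shared read-quality sets. No library duplicated another: replicates differed by a chi-square of 2.67 to 46.4 per degree of freedom. P-values measure the spread between mice. Intervals of 0 reads cover counting error alone. Odf3l2 was not analysed here. A gene that the rule for named genes takes is not reported here.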

Additional observations from a re-analysis of the deposited data

How the results depend on the processing

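The falls of Odf1 (−2.63 to −2.32 on the log2 scale) and Odf3b (−1.78 to −1.32) passed both thresholds in all 23 alternatives. Odf2 missed them in libraries 4 and 5 alone, at −0.56 (adjusted p = 0.0623, limma). Scaling to library totals, which moved the median log2 fold change of all genes from 0.03 to 0.25 (upper quartile, 0.12), left Odf4 at −0.50, under the fold of 1.5, and turned the direction of Odf2l (0.14), Odf3 (0.095) and Odf3l1 (0.16). Odf2l and Odf3l1 also turned with upper quartile scaling (0.0078 and 0.022) and in libraries 4 and 5 alone (0.11 and 0.021). Odf3 turned without KI 5, and ranged from −0.22 to 0.0092 over the libraries left out. None of the turned values passed the threshold. The causes were not tested.

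Of all genes, 3529 differed with no fold threshold, against 2209 with it. Scaled to library totals, 2145 were higher and 789 lower, against 944 and 1265. In libraries 4 and 5 alone 471 were higher. The number of Odf genes lower in KI stayed at 4 without any of the libraries, and was 3 in libraries 4 and 5 alone and with library totals. Leaving out each library gave 10 to 15 differing pairs of Odf genes, against 14. In libraries 1 to 3 or 4 and 5 alone, and with paired sign flips (smallest p 0.0625), the test of a pair cannot pass 0.05 and was not run. With the replicate block 4 Odf genes were lower and 2410 genes differed, and the block changed no call of an Odf gene and, among the counts of the lists, moved only that of the Leydig markers by over 1.5 times. With 3 reads worth up to 3.62 normalized counts, the Odf gene nearest that floor was Odf3b, at 28 reads or more.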
